A study of Mus musculus with 16 samples.

Results

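Cells in which a T cell receptor beta chain (TRB) was read without an alpha chain (TRA) were examined in the T cell receptor sequencing of tumour-infiltrating cells from mouse liver. A cell counted as beta-only when its barcode was called a cell and carried 1 or more productive TRB contigs and no productive TRA contig, all of high confidence. There were 973 such cells among 5760 cells with a productive TRB, which is 16.9%. The other 4787 cells with a TRB also had a productive TRA and are called paired here. A further 148 of the 5908 cells with a productive chain had a TRA alone.

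The cells came from Hepa1-6 tumours, a mouse hepatoma line grown in the liver of C57BL/6 mice. KO mice had the genotype CD4creMatr3fl/fl, in which Cre driven by Cd4 removes the floxed Matr3, and CON mice had the genotype CD4creMatr3WT/WT and so carried the same Cre. Cd4-driven Cre acts in thymocytes that go on to become CD8+ as well as CD4+ T cells, so the deletion is not limited to CD4+ T cells. Tumours were taken at day 14 and at day 5, and each of the 4 groups had 2 libraries, named by the replicate number of their label (KO day 14, CON day 14, KO day 5 and CON day 5). The labels do not state whether a library held cells of 1 mouse or of several, so the p-values measure the spread between these libraries, which may in part be technical. Contig tables hold no Matr3 expression, and the loss of Matr3 was not checked here.

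The alpha and beta chains together form the receptor of conventional T cells. The beta gene is assembled first in the thymus, from V, D and J segments, and the alpha gene follows from V and J segments on both alleles, so that a T cell often carries an alpha rearrangement on the other allele that is out of frame. The contig caller names a contig productive when it spans the V and J segments and keeps an open reading frame through the CDR3, the loop that touches the antigen. A beta-only cell is therefore a T cell for which no alpha contig met that standard. Some hold an incomplete contig with the alpha CDR3 of paired cells that share their beta chain, as given later. For the others the tables alone do not in general tell an alpha transcript that was missed from one that was not made. Invariant natural killer T (iNKT) cells, which are common in mouse liver, share an almost fixed alpha chain made of TRAV11 and TRAJ18 and prefer the beta segments TRBV13, TRBV29 and TRBV1.

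The CDR3 sequences of the TRB clonotypes with the most beta-only cells, 1 per library, are shown because most of them also carry paired cells whose alpha chain is known. A clonotype is a set of cells of 1 library with the same V segment, J segment and CDR3 nucleotides of TRB. The TRB locus lies on chromosome 6. Capitals mark the codons between the first 4 and the last 4 of the CDR3. The cut is fixed, so joined ends and added bases can also lie in the lower-case parts.
KO day 14 replicate 1, TRBV20 and TRBJ2-7, 7 beta-only and 63 paired cells: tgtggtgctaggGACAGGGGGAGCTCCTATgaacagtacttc
KO day 14 replicate 2, TRBV3 and TRBJ2-1, 4 beta-only and 11 paired cells: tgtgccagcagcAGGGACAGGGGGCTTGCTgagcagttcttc
CON day 14 replicate 1, TRBV14 and TRBJ1-2, 10 beta-only and 35 paired cells: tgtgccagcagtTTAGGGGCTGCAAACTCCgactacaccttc
CON day 14 replicate 2, TRBV13-1 and TRBJ1-1, 5 beta-only and 145 paired cells: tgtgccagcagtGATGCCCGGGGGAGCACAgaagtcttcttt
KO day 5 replicate 1, TRBV1 and TRBJ1-1, 4 beta-only cells and 1 paired cell: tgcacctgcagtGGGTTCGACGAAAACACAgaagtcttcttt
KO day 5 replicate 2, TRBV12-1 and TRBJ2-2, 2 beta-only and 2 paired cells: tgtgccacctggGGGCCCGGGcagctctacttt
CON day 5 replicate 1, TRBV19 and TRBJ2-7, 5 beta-only and 10 paired cells: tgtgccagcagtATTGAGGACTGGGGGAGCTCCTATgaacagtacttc
CON day 5 replicate 2, TRBV31 and TRBJ2-4, 4 beta-only and 0 paired cells: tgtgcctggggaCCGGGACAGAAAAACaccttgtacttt

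The paired cells of these clonotypes give the alpha chain found together with the same beta. The alpha CDR3 of the clonotypes of KO day 14 replicate 1, CON day 14 replicate 1 and KO day 5 replicate 2 are shown, on chromosome 14 and with capitals as above, because the non-productive alpha contigs described later are read against them.
TRAV7D-4 and TRAJ5, 63 of the 63 paired cells of the TRBV20 clonotype: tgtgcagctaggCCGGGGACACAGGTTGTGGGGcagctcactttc
TRAV10D and TRAJ9, 35 of the 35 paired cells of the TRBV14 clonotype: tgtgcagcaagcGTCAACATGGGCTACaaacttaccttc
TRAV9-4 and TRAJ43, both paired cells of the TRBV12-1 clonotype: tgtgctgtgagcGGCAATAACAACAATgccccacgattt

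The 8 libraries held 462 to 1357 cells with a TRB, and the productive contigs of a library summed to 7683 to 31936 unique molecular identifiers (UMIs, each counting 1 captured transcript). Of 5887 barcodes, 21 occurred in more than 1 library, and none of these had the same TRB CDR3 in both. They touched 5 beta-only cells. A TRB clonotype was seen in 2 or more libraries 21 times, which involved 17 beta-only cells.

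Beta-only cells made up 12.5% (68 of 546) and 21.1% (153 of 725) of the cells with a TRB in the KO day 14 libraries, against 12.4% (168 of 1357) and 12.8% (102 of 798) in the CON day 14 libraries. At day 5 they made up 24.4% (134 of 550) and 18.6% (86 of 462) in KO, against 23.0% (135 of 587) and 17.3% (127 of 735) in CON. The 3 lowest shares were those of 3 day 14 libraries, and KO day 14 replicate 2 lay among the day 5 libraries. The exact 95% binomial interval, which covers counting error only, reached from 18.2 to 24.3% in that library and from 9.80 to 15.5% in the other KO day 14 library, so the KO replicates differed by more than counting error.

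The share averaged 14.7 ± 4.29% at day 14 and 20.8 ± 3.40% at day 5 (SD over the 4 libraries of a day), a difference of -6.13 percentage points that did not pass (exact permutation of day within genotype, two-sided p = 0.111, adjusted p = 0.222 over 6 measures, smallest p this design allows 0.0556). KO libraries averaged 19.1 ± 5.04% and CON libraries 16.4 ± 4.95% (SD, n = 4 each), a difference of 2.77 points (exact permutation of genotype within day, p = 0.278, adjusted p = 0.556). Within day 14 KO exceeded CON by 4.20 points and within day 5 by 1.35 points (exact permutation p = 0.667 at each day, where 2 against 2 libraries cannot give less than 0.333). The genotype difference changed between the days by 2.85 points (exact permutation p = 0.778).

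The share varied with the size of the clonotype. Among TRB seen in a single cell of a library, 19.9 ± 3.39% of cells were beta-only at day 14 and 20.1 ± 2.92% at day 5 (SD over the 4 libraries of a day). At day 14 the share was 15.5 ± 6.63% in clonotypes of 2 to 9 cells and 6.69 ± 2.52% in clonotypes of 10 or more cells (SD, n = 4), and the largest class was below the single cells in each of the 4 libraries. At day 5 the share was 28.7 ± 11.6% in clonotypes of 2 to 9 cells (SD, n = 4), and it was above that of the single cells in 3 of 4 libraries, as in KO day 5 replicate 1 with 45.7% against 22.4%. When each clonotype was counted once, the share differed by 0.847 points between day 14 and day 5 (exact permutation p = 0.722), so the sign turned. In the cells of these size classes the median TRB UMI count per library was 12 to 19.5 in clonotypes of 10 or more cells and 7 to 10 in single cells at day 14, and the part of that difference in the result was not tested. Clonotypes of 10 or more cells were rare at day 5, with 31 cells of 2 clonotypes and beta-only shares of 33.3 and 6.25%, and the 4 day 5 libraries had 180 cells in clonotypes of 2 to 9.

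**Figure D1:**
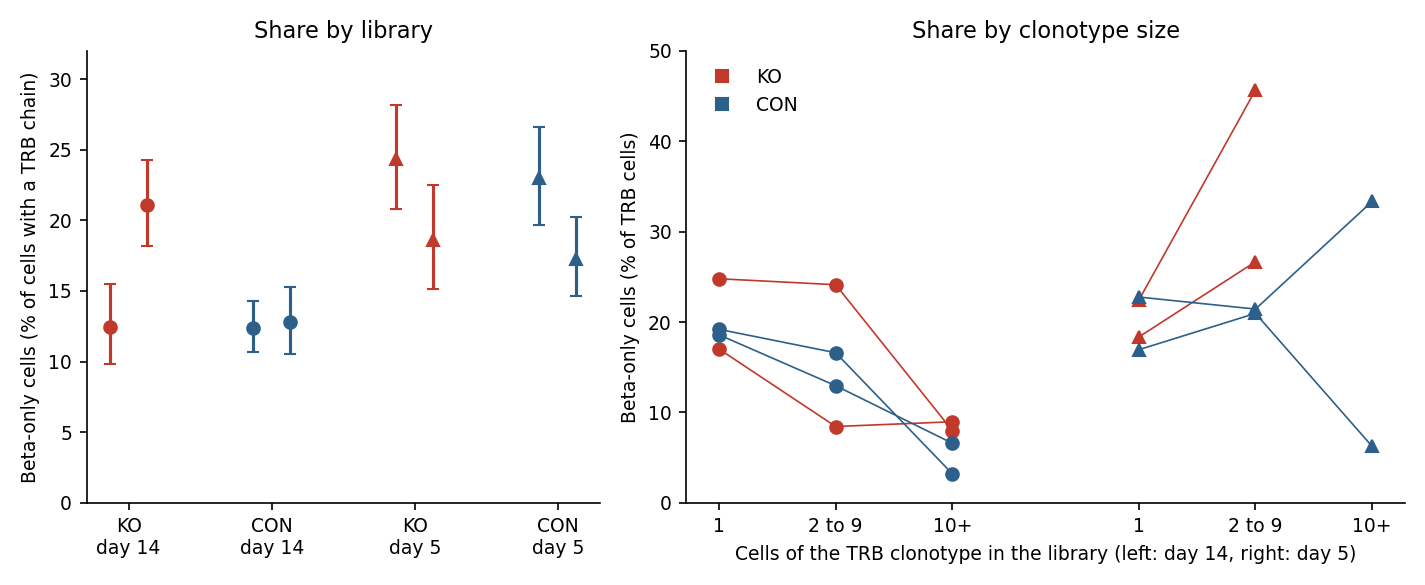
Left: beta-only cells as a percentage of cells with a TRB in each library (bars: exact 95% binomial interval), with KO left of CON and day 14 left of day 5. Right: the same share by the number of cells of the TRB clonotype in the library, 1 line per library. The 4 day 14 libraries lie between 3.21 and 8.97% in clonotypes of 10 or more cells and between 17.004 and 24.8% in single cells.

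Large clonotypes differed in how often the alpha was missing. Of 35 clonotypes with 10 or more cells, 33 were in day 14 libraries and 10 had no beta-only cell. The median share of beta-only cells in them was 6.45%, and the highest was 33.3%, in the TRBV19 and TRBJ2-7 clonotype of CON day 5 replicate 1 shown above. The TRBV13-1 and TRBJ1-1 clonotype of CON day 14 replicate 2 was the largest and had 5 beta-only cells of 150, or 3.33%. The TRBV14 and TRBJ1-2 clonotype of CON day 14 replicate 1 had 10 of 45, or 22.2%.

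Beta-only cells carried fewer TRB transcripts than paired cells of the same library. The mean TRB UMI count per beta-only cell was 9.38 and 8.25 in KO day 14, 10.0 and 10.2 in CON day 14, 7.54 and 8.92 in KO day 5, and 9.67 and 10.3 in CON day 5. Paired cells averaged 14.9 and 14.9 in KO day 14, 17.04 and 17.2 in CON day 14, 12.2 and 12.4 in KO day 5, and 12.9 and 16.9 in CON day 5. The beta-only mean was below the paired mean in 8 of 8 libraries, and the highest beta-only mean lay under the lowest paired mean.

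The mean difference was -0.67 ± 0.15 on the log2 scale (SD, n = 8 libraries, exact two-sided sign-flip permutation p = 0.0078, the smallest that sign flips over 8 libraries allow, adjusted p = 0.0234 over 6 measures). It was -0.76 ± 0.08 at day 14 and -0.57 ± 0.15 at day 5 (SD over the 4 libraries of a day), a change that did not pass (exact permutation p = 0.111, adjusted p = 0.139). Counts were not confined to the lowest values: 116 beta-only cells had 17 or more TRB UMIs, and the highest count in each library was 31 to 51. The median contig of the TRB chain was 555 bases long in both classes.

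The comparison within clonotypes pointed the same way with a wider spread. In the 131 clonotypes that held both beta-only and paired cells, the mean TRB UMI count was lower in the beta-only cells of 82. Averaged per library, the log2 difference was -0.41 ± 0.45 (SD, n = 8), lower in 7 of 8 libraries (exact sign-flip permutation p = 0.0391, a test added after the data were seen). Leaving out 1 library at a time gave -0.51 to -0.30 with exact p between 0.0156 and 0.0781, and the call held only without CON day 5 replicate 1, which had 2 such clonotypes.

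Across TRB UMI classes the share of beta-only cells was not highest at the lowest count. Averaged over 8 libraries it was 16.2 ± 10.97% of cells with 1 to 2 TRB UMIs, 30.2 ± 8.15% with 3 to 4, 23.4 ± 4.29% with 5 to 8, 16.8 ± 4.74% with 9 to 16 and 8.21 ± 3.87% with 17 or more (SD). In cells with 1 to 2 TRB UMIs it ran from 1.47 to 17.4% in the day 14 libraries and from 18.5 to 33.3% in the day 5 libraries, so the days did not overlap there, with 174 and 102 cells in all. That difference was not tested. Only barcodes that the authors' pipeline called cells are counted here. It left uncalled 107 barcodes with a TRB and no TRA, and 61 with both chains. Uncalled barcodes with 1 TRB and no TRA had a median of 3 TRB UMIs, and their part in the lowest classes was not tested. With 17 or more TRB UMIs it was 4.76 to 5.61% at day 14 and 8.37 to 15.97% at day 5. TRA transcripts were few even where they were found: the median TRA UMI count in paired cells was 3 to 5 in the 8 libraries, and 6.03 to 13.5% of paired cells had a single TRA UMI.

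**Figure D2:**
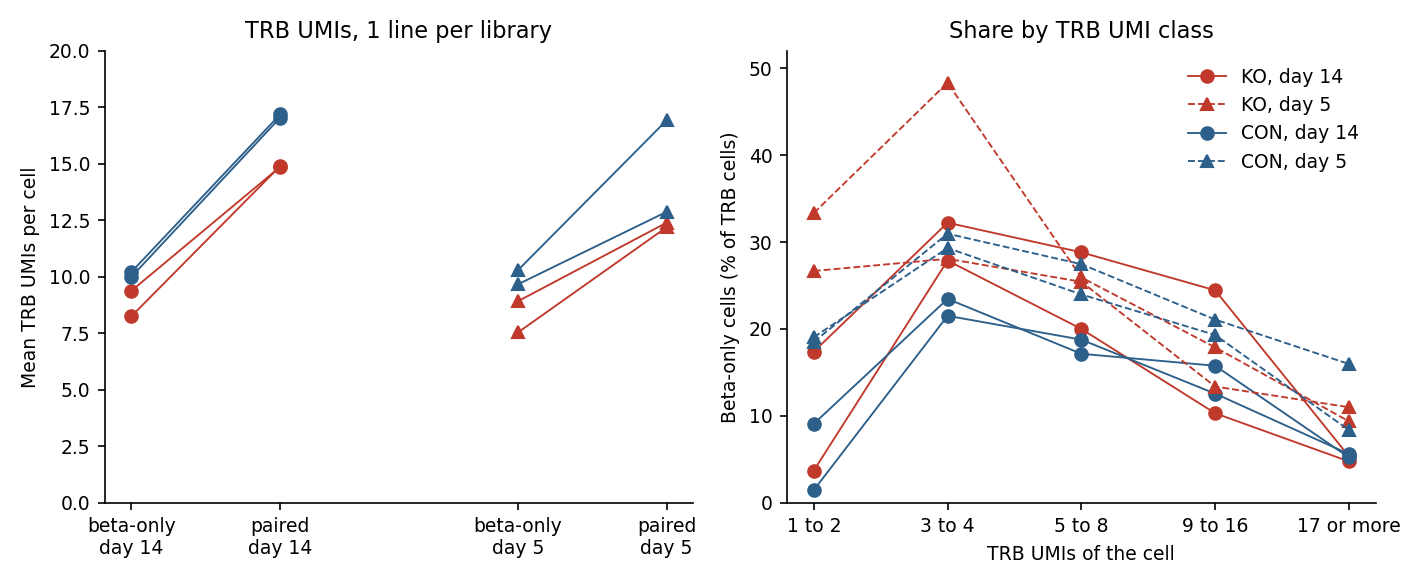
Left: mean TRB UMIs per cell in beta-only and paired cells, 1 line per library, day 14 left of day 5. All 8 lines go up from beta-only to paired. Right: share of beta-only cells among TRB cells by the TRB UMI count of the cell, which is highest at 3 to 4 UMIs in each of the 8 libraries.

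By genotype, beta-only cells averaged 8.52 ± 0.80 TRB UMIs in KO libraries and 10.0 ± 0.28 in CON libraries (SD, n = 4 each), -0.24 on the log2 scale. The 4 KO values were all below the 4 CON values, and the exact permutation p was 0.0556, the smallest possible, with an adjusted p of 0.333. Paired cells of the same libraries averaged 13.6 ± 1.49 TRB UMIs in KO and 16.003 ± 2.09 in CON (SD, n = 4 each). The gap between the classes was -0.67 ± 0.15 in KO and -0.66 ± 0.17 in CON on the log2 scale (SD, n = 4 each). The mean of beta-only cells was 9.46 ± 0.88 at day 14 and 9.10 ± 1.19 at day 5 (SD over the 4 libraries of a day; exact permutation p = 0.5, adjusted p = 0.5).

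No beta-only cell had 2 productive TRB chains. The count was 0 of 973, which allows a share of up to 0.308%, against 173 of the 4787 paired cells. In paired cells the share was 1.58 to 5.05% per library, with a mean of 3.57 ± 1.104% (SD, n = 8). Among barcodes that the authors' pipeline did not call cells, 107 had a high-confidence productive TRB and no TRA, and 41 of them had 2 or more TRB. All barcodes with 2 or more TRB and no TRA thus lay outside the called cells, so the count of 0 is given as a description only. Its sign-flip p-value stayed among the 6 measures adjusted between the classes, and is not read as a result.

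Beta-only cells often shared their TRB with a paired cell of the same library at day 14. The share was 35.3 and 33.3% in KO day 14 and 41.1 and 36.3% in CON day 14, against 11.2 and 4.65% in KO day 5 and 4.44 and 10.2% in CON day 5. In all, 219 beta-only cells matched 131 paired clonotypes, 181 of 491 cells at day 14 and 38 of 482 at day 5. The days did not overlap, and the means of 36.5 ± 3.29% at day 14 and 7.63 ± 3.58% at day 5 (SD over the 4 libraries of a day) differed by 28.9 points, with the smallest possible exact permutation p of 0.0556 and an adjusted p of 0.167. KO averaged 34.3% and CON 38.7% at day 14, and 7.92 and 7.34% at day 5 (exact permutation p = 0.333 and 0.667 within the days).

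For paired cells the same question was whether another paired cell of the library had the TRB. The share was 55.6 and 52.3% in KO day 14, 66.3 and 67.2% in CON day 14, 4.09 and 2.39% in KO day 5, and 4.42 and 15.3% in CON day 5. At day 14 beta-only cells were 18.9 to 31.0 points below paired cells in each of 4 libraries, and at day 5 the difference was between -5.06 and 7.11 points. Over 8 libraries it averaged -11.4 points (exact sign-flip permutation p = 0.0938, adjusted p = 0.141), and it differed between day 14 and day 5 by -24.9 points (exact permutation p = 0.0556, the smallest possible, adjusted p = 0.0926).

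With each clonotype counted once, the difference was 4.83 points. Per clonotype the classes do not face the same requirement, since a beta-only clonotype matches with 1 paired cell and a paired clonotype needs a further one, so this value has no test and its sign says nothing of the classes.

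**Figure D3:**
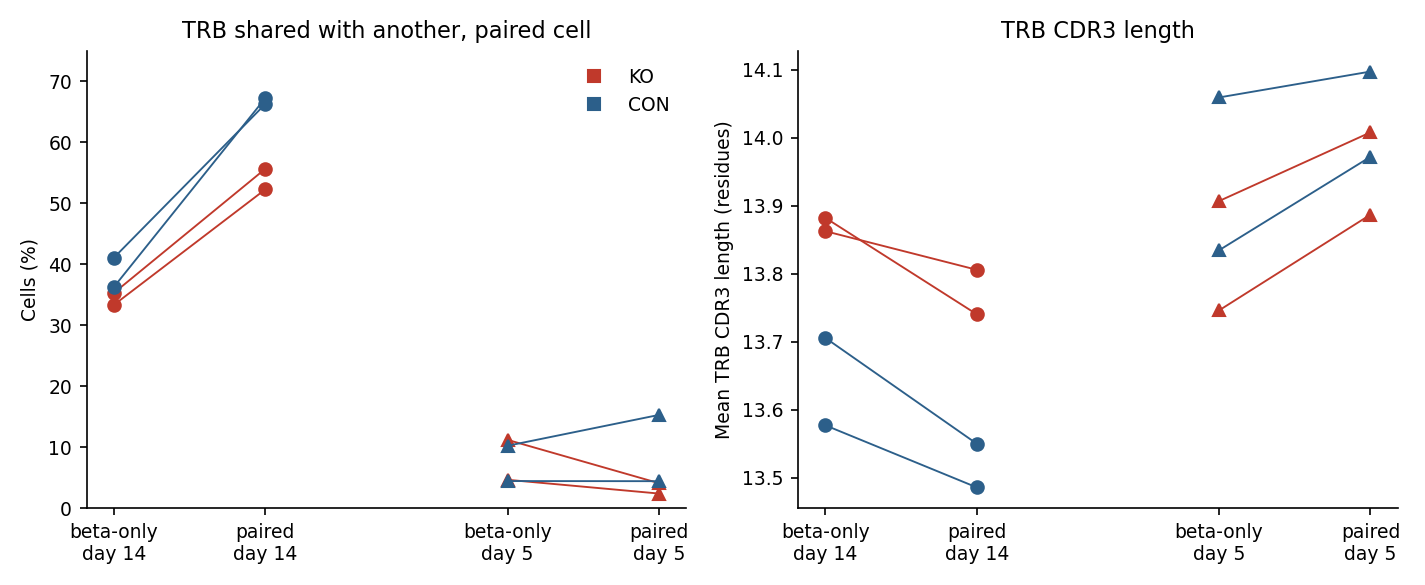
Left: percentage of beta-only and paired cells whose TRB was that of another, paired cell of the library, 1 line per library. The 4 day 14 lines go up from 33.3 to 41.1% in beta-only cells to 52.3 to 67.2% in paired cells, and the day 5 libraries lie at or under 15.3%. Right: mean TRB CDR3 length in residues on an axis that does not start at 0, longer in beta-only than in paired cells in the day 14 libraries and shorter in the day 5 libraries.

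The authors' own clonotype numbers gave nearly the same sets. They placed 205 of the 219 matched cells in a clonotype with a paired cell, and 2 of the cells without a match. Most beta-only cells stood alone: the 973 cells had 853 TRB clonotypes, and 68 of these held 2 or more beta-only cells. Of the 68, 27 had no paired cell in their library. The largest of those was the TRBV31 and TRBJ2-4 clonotype of CON day 5 replicate 2 shown above, with 4 cells of 6 to 12 TRB UMIs each. Of the 59 cells in these 27 clonotypes, 24 had a non-productive TRA contig, and in 5 clonotypes the same TRA V and J names occurred in 2 or more cells.

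Most matched clonotypes had a single alpha partner. Of 131 matched clonotypes 76 had 2 or more paired cells, and 69 of those had 1 main alpha chain. In 13 of the 131 clonotypes, with 16 beta-only cells, a paired cell was of the iNKT type, meaning that it had a productive TRAV11 joined to TRAJ18. Among all 4787 paired cells, 645 were of this type.

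A non-productive TRA contig was present in 42.6 and 26.8% of beta-only cells in KO day 14, 39.3 and 40.2% in CON day 14, 28.4 and 29.1% in KO day 5, and 31.9 and 22.0% in CON day 5. In paired cells it was present in 39.7 and 17.3% in KO day 14, 27.4 and 25.1% in CON day 14, 28.1 and 28.7% in KO day 5, and 24.1 and 32.7% in CON day 5. A cell whose own alpha was assembled but not productive is beta-only by rule unless it has another, productive alpha, so the classes do not have the same chance of such a contig. The p-values below do not allow for that. The difference was 4.62 points over 8 libraries and positive in 7 (exact sign-flip permutation p = 0.141, adjusted p = 0.169). CON day 5 replicate 2 was the exception, at -10.7 points. Leaving out 1 library at a time gave 3.13 to 6.80 points, with the highest value without that library. The difference averaged 9.83 ± 5.15 points at day 14 and -0.59 ± 7.59 points at day 5 (SD over the 4 libraries of a day; exact permutation p = 0.0556, adjusted p = 0.0926).

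The contigs were of different kinds, and 1 kind was more frequent in beta-only cells. An incomplete contig, which the caller did not flag as full length, with a CDR3 was present in 11.8 and 8.50% of beta-only cells in KO day 14, 9.52 and 7.84% in CON day 14, 7.46 and 8.14% in KO day 5, and 9.63 and 7.09% in CON day 5. In paired cells it was present in 3.56 and 2.10% in KO day 14, 1.93 and 1.72% in CON day 14, 1.202 and 2.93% in KO day 5, and 2.21 and 3.29% in CON day 5. The 2 ranges did not overlap. The means were 8.74 ± 1.52% and 2.37 ± 0.81% (SD, n = 8), a difference of 6.38 points. Counted once per clonotype the difference was 6.09 points. The split by kind was made after the data were seen, and since an alpha that is assembled only in part makes a cell beta-only by rule, the kinds are described with no test.

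The other kinds differed less. Incomplete contigs with no CDR3 were present in 3.99 ± 1.39% of beta-only and 2.39 ± 0.74% of paired cells (SD, n = 8). Full-length contigs with no CDR3 were present in 13.4 ± 6.20% and 13.2 ± 4.56%, and full-length contigs with a CDR3 in 9.31 ± 3.39% and 10.1 ± 2.39% (SD, n = 8). The incomplete contigs with a CDR3 had a median length of 426 bases in beta-only cells and 426 in paired cells, against 548 for productive TRA contigs. Their median was 2 UMIs in beta-only cells.

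**Figure D4:**
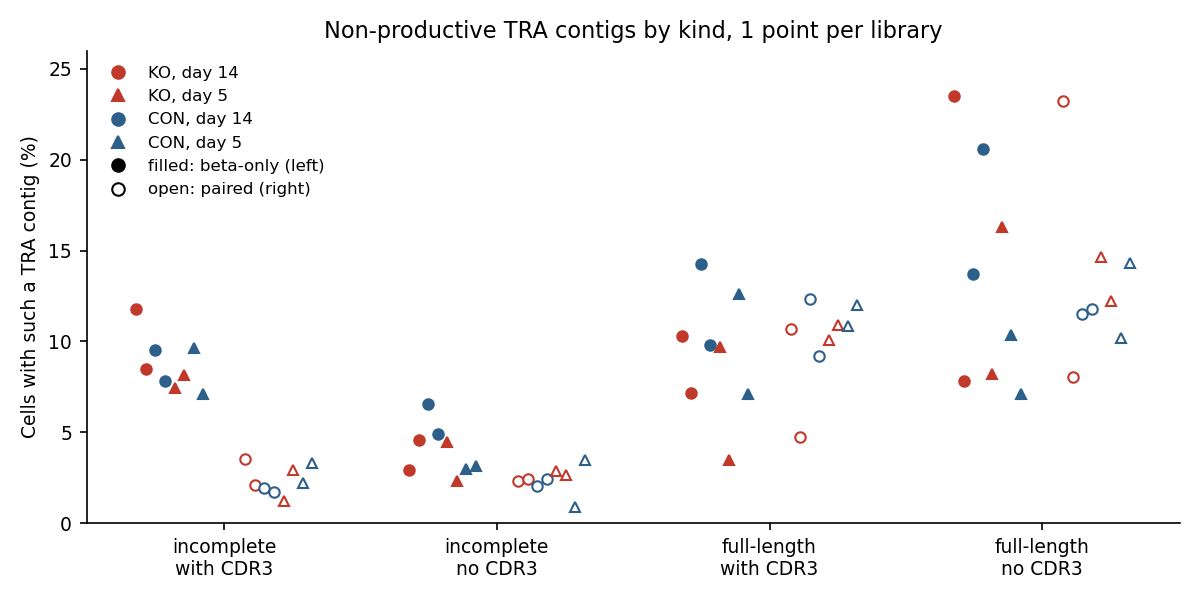
Percentage of cells with each kind of non-productive TRA contig, 1 point per library, beta-only (filled) left of paired (open). For incomplete contigs with a CDR3 the 8 beta-only values lie between 7.09 and 11.8% and the 8 paired values between 1.202 and 3.56%; for the other kinds the ranges overlap.

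In matched cells these contigs could be set against the alpha chain of the clonotype. Of 35 incomplete contigs with a CDR3 in matched beta-only cells, 30 had the CDR3 nucleotides of a productive alpha of the paired cells, in 25 clonotypes and all 8 libraries. Both beta-only cells of the TRBV12-1 clonotype of KO day 5 replicate 2 were of this kind, with an incomplete TRAV9-4 and TRAJ43 contig that held the alpha CDR3 printed above. Of 25 full-length contigs with a CDR3, 7 had the clonotype's alpha CDR3.

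The full-length contigs with no CDR3 have no sequence to set against the alpha CDR3, so only their V and J names were compared. Of 35 in matched cells, 30 had the same V and J names as a non-productive contig in paired cells of their clonotype, in 16 clonotypes. The TRBV20 clonotype of KO day 14 replicate 1 had a full-length TRAV3-3 and TRAJ9 contig with no CDR3 in 6 of 7 beta-only cells, and a non-productive contig of those names in 60 of 63 paired cells. In the TRBV14 clonotype of CON day 14 replicate 1 a TRAV13-3 and TRAJ13 contig of this sort was found in 8 of 10 beta-only cells, and in 19 of 35 paired cells. In neither clonotype did a beta-only cell have a contig with the alpha CDR3 of its paired cells.

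The iNKT alpha chain was frequent among the non-productive contigs of beta-only cells. TRAV11 (chr14:53519303-53519859 in GRCm38) was joined to TRAJ18 (chr14:54200777-54200842) in 22 of 343 such contigs in beta-only cells, or 6.41%, and in 1 of 1334 in paired cells, or 0.0750%. Of the 22 contigs, 16 held the invariant CDR3 and 13 were incomplete. Their 22 cells were 6 at day 14 and 16 at day 5, and 21 of them used an iNKT-type beta segment (TRBV13-1, TRBV13-2, TRBV13-3, TRBV29 or TRBV1, or the joint name given below). A cell with a productive iNKT alpha is paired by rule, so the 2 classes were not offered the same chance of such a contig, and no test was made. The alpha CDR3 read most often from incomplete contigs of beta-only cells was the invariant one, in 7 cells of 5 libraries, and another nucleotide form was read in 2 cells of 2 libraries.
TRAV11 and TRAJ18, productive in 250 cells: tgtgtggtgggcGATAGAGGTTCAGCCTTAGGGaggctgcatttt
TRAV11 and TRAJ18, productive in 171 cells: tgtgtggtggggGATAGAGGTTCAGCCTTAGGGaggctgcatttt

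By the most frequent names, TRAV11 was in 26 of 343 non-productive TRA contigs of beta-only cells (7.58%) and in 25 of 1334 of paired cells (1.87%). TRAV3-3 was in 7.29% and 9.97%, TRAV12-2 in 5.25% and 6.37%, TRAV6-5 in 4.66% and 3.07%, and TRAV9-4 in 4.37% and 2.10%. Of contigs with a J name, TRAJ18 was in 9.60% and 1.46%, TRAJ31 in 7.12% and 5.08%, TRAJ27 in 5.57% and 2.85%, TRAJ13 in 3.72% and 3.38%, and TRAJ22 in 3.72% and 4.62%.

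No TRB segment was called different between beta-only and paired cells at the main settings, which does not show that their use was the same. Counts of cells per TRBV and TRBJ segment were compared in edgeR with the library as a block, and 0 of 32 tested segments passed an adjusted p of 0.05 in either direction, which is 0% higher and 0% lower, with 4 at an unadjusted p under 0.05 in edgeR and 4 in DESeq2. The smallest p belonged to the joint name TRBV12-2+TRBV13-2, which the caller gave where a contig matched both segments.

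This joint name was in 10.3 and 11.8% of beta-only cells in KO day 14, 13.7 and 12.7% in CON day 14, 25.4 and 30.2% in KO day 5, and 20.7 and 19.7% in CON day 5. In paired cells it was in 6.49 and 8.57% in KO day 14, 5.47 and 5.17% in CON day 14, 21.9 and 21.8% in KO day 5, and 20.4 and 18.8% in CON day 5. It was the higher of the pair in 8 of 8 libraries, with means of 18.1 ± 7.16% and 13.6 ± 7.76% (SD, n = 8) and edgeR gave 0.50 ± 0.16 (SE) for the log2 ratio, with an adjusted p of 0.118. Set against paired cells without the iNKT type, the log2 fold change was 1.49. That filter takes cells with iNKT-type beta segments from the paired class alone, so the value is given with no test. Beta-only cells with an iNKT receptor cannot be removed in the same way, since their alpha is missing.

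The other segments with small p lay on both sides. TRBV12-1 (chr6:41113567-41114067) was in 3.37 ± 1.33% of beta-only and 6.77 ± 5.32% of paired cells (SD, n = 8), lower in 8 of 8 libraries, with a log2 fold change of -0.81 ± 0.29. TRBV12-2 (chr6:41118864-41119364) was in 4.70 ± 1.54% and 3.19 ± 0.94%, higher in 8 of 8 libraries, with 0.54 ± 0.22. These counts leave out cells with the joint name. TRBJ2-5 (chr6:41543453-41543501) was in 8.63 ± 3.24% and 13.2 ± 3.80%, with -0.56 ± 0.20. The edgeR adjusted p was 0.118 for TRBV12-1 and TRBJ2-5 and 0.265 for TRBV12-2. TRBV12-1 and TRBJ2-5 are not separate signals throughout. Large day 14 clonotypes with both segments had 41, 45, 16 and 32 paired cells, and 1, 0, 2 and 1 beta-only cells. With each clonotype counted once, 1 of 32 segments had an unadjusted edgeR p under 0.05. Coordinates are those of GRCm38.

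TRBV23 (chr6:41216073-41216526) fell 1 cell short of the minimum of 40 cells and was chosen for mention after its values were seen. It had 18 beta-only and 21 paired cells, so that 46.2% of its cells lacked an alpha. The beta-only cells were 4 and 1 in KO day 14, 5 and 7 in CON day 14, 0 and 0 in KO day 5, and 1 and 0 in CON day 5, from 12 clonotypes. With no minimum, TRBV23, TRBJ2-5 and TRBV12-2+TRBV13-2 passed in edgeR. Of the 4 clonotypes with 3 or more beta-only cells and no paired cell, 1 used TRBV23.

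By groups of segments, the iNKT-type beta segments together made up 46.5 ± 7.98% of beta-only and 41.7 ± 11.2% of paired cells (SD, n = 8), a difference of 4.83 points, positive in 6 of 8 libraries (exact sign-flip permutation p = 0.0469, adjusted p = 0.0938). Only 645 of the 4787 paired cells had the iNKT-type alpha, so most cells with these segments were not of the iNKT type there. Of the 6 names in the list 0 passed in edgeR in either direction, and their median log2 fold change was 0.18, against 0.03 over all 32 segments. The Vbeta8 names (TRBV13-1, TRBV13-2, TRBV13-3 and the joint name) had a median of 0.25, with TRBV13-2 at 0.51 and TRBV13-1 at -0.16. The V segments farthest upstream (TRBV1, TRBV2, TRBV3 and TRBV5) had a median of -0.33, with TRBV2 at -0.66 and TRBV5 at -0.34. For segments in the middle of the locus (TRBV14 to TRBV19) it was 0.03, with TRBV15 at 0.78 and TRBV19 at -0.39.

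The 3 tested segments near the J segments (TRBV20, TRBV26 and TRBV29) had a median of 0.21, with TRBV26 at 0.31. The inverted TRBV31, which lies past the constant genes, had -0.07. The Jbeta1 segments had a median of 0.16, with TRBJ1-6 at 0.70 and TRBJ1-2 at 0.35, and the Jbeta2 segments 0.12, with TRBJ2-4 at 0.43. Of the segments in these lists 0 passed in edgeR. Jbeta2 segments, which are joined to TRBC2, were in 65.8 ± 6.58% of beta-only and 65.4 ± 6.38% of paired cells (SD, n = 8).

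**Figure D5:**
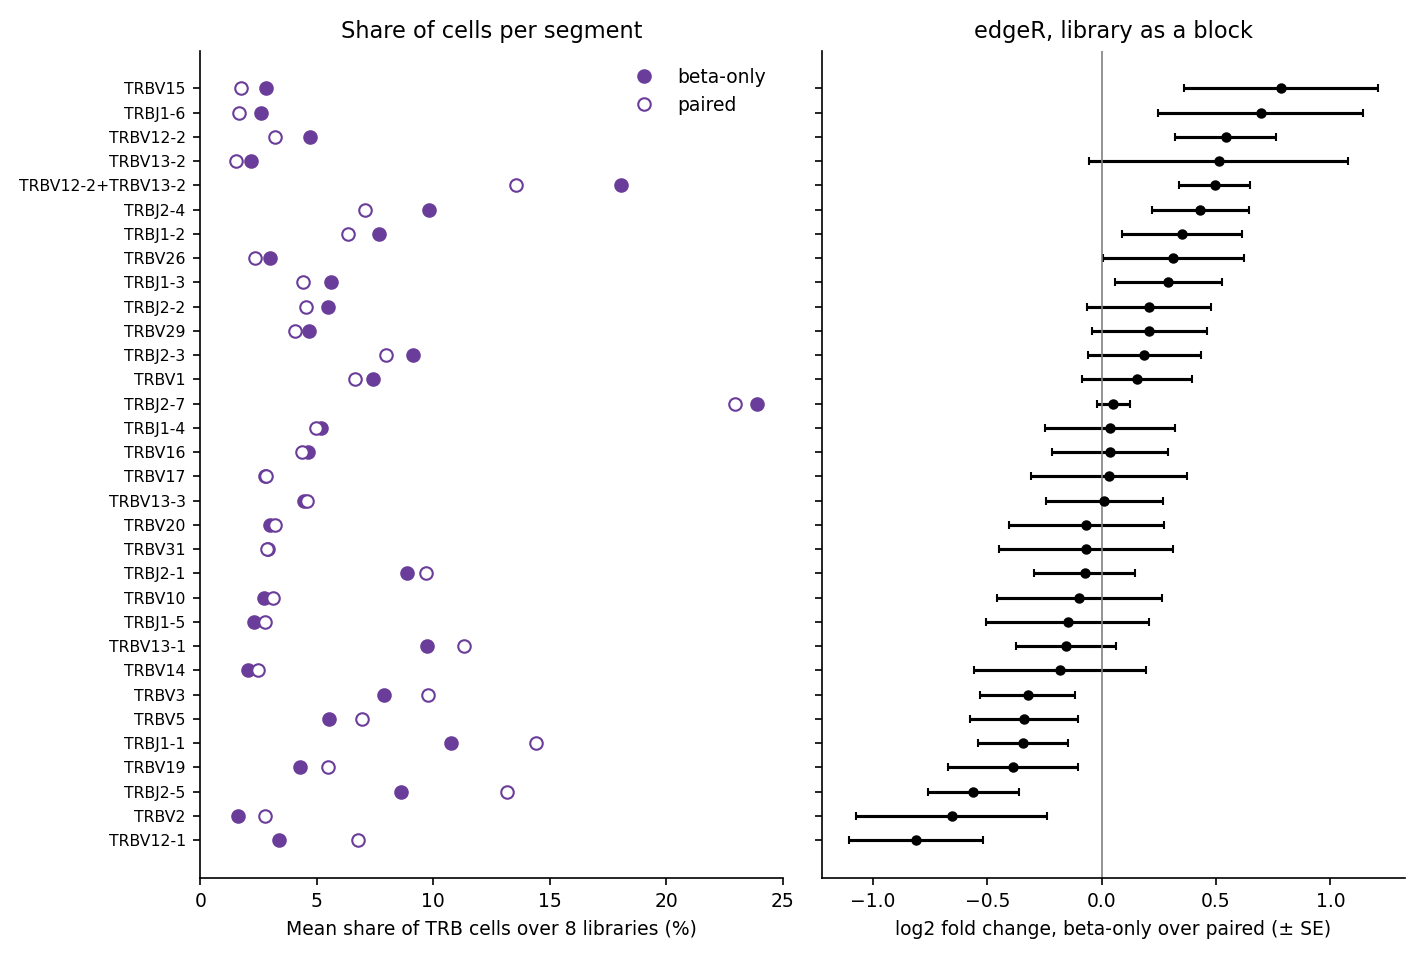
Left: mean share of beta-only (filled) and paired (open) cells per TRBV or TRBJ segment over 8 libraries. Right: edgeR log2 fold change of beta-only over paired with its SE for the 32 tested segments, from -0.81 for TRBV12-1 to 0.78 for TRBV15, none of which passed an adjusted p of 0.05.

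Segment use of beta-only cells differed between the days at the joint name. Among 31 segments tested in beta-only cells, 1 passed between day 14 and day 5 in edgeR, which is 3.23% lower and 0% higher. TRBV12-2+TRBV13-2 was in 12.1 ± 1.45% of beta-only cells at day 14 and 24.0 ± 4.83% at day 5 (SD over the 4 libraries of a day), which is -0.91 ± 0.23 (SE) on the log2 scale with an adjusted p of 0.00446 in edgeR. DESeq2 gave -0.94 with an adjusted p of 0.192, and without KO day 5 replicate 2 the value was -0.83 with an edgeR adjusted p of 0.0640. Paired cells had 6.42 ± 1.54% at day 14 and 20.7 ± 1.48% at day 5.

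The next segments by p did not pass. TRBV3 had a log2 fold change of 1.17 ± 0.40 between day 14 and day 5 (edgeR adjusted p = 0.0574), TRBJ1-3 one of -1.25 ± 0.46 (0.0714) and TRBJ2-3 one of 0.90 ± 0.38 (0.141). In paired cells the means at day 14 and day 5 were 13.6 and 5.95% for TRBV3, 2.78 and 6.06% for TRBJ1-3, and 7.44 and 8.54% for TRBJ2-3. The iNKT-type beta segments together were in 40.1 ± 3.25% of beta-only cells at day 14 and 52.9 ± 5.31% at day 5 (SD over the 4 libraries of a day), with no overlap (exact permutation p = 0.0556, the smallest possible, adjusted p = 0.167). In paired cells they were also lower at day 14, with 32.8 ± 8.70% against 50.6 ± 2.33% at day 5.

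The difference between beta-only and paired cells changed between the days for 1 of 32 segments in edgeR, which is 3.12% lower and 0% higher. TRBJ1-1 (chr6:41533864-41533911) was in 4.41 and 11.8% of beta-only cells in KO day 14 and 13.1 and 10.8% in CON day 14, against 9.70 and 11.6% in KO day 5 and 10.4 and 14.2% in CON day 5. In paired cells it was in 6.90 and 25.5% in KO day 14 and 15.2 and 28.2% in CON day 14, against 8.41 and 10.1% in KO day 5 and 11.9 and 9.05% in CON day 5.

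The log2 change of the difference, day 14 over day 5, was -1.07 ± 0.29 for TRBJ1-1 (SE, edgeR adjusted p = 0.0186). DESeq2 gave -1.07 with an adjusted p of 0.192. The edgeR call was also lost in 4 of 8 runs that each left out 1 library, with -0.93 without KO day 14 replicate 2 (adjusted p = 0.0795), -0.89 without CON day 14 replicate 2 (0.154), -1.23 without CON day 5 replicate 1 (0.138) and -0.89 without CON day 5 replicate 2 (0.207). The paired cells of day 14 held 3 clonotypes with TRBJ1-1 that had 145, 97 and 83 paired cells, and 5, 4 and 3 beta-only cells. Counted once per clonotype the change was -0.24 (edgeR adjusted p = 0.895). The next 3 segments by p did not pass: the change was 0.77 ± 0.26 for TRBV12-2+TRBV13-2 (adjusted p = 0.0665), 1.15 ± 0.42 for TRBJ2-3 and 1.20 ± 0.45 for TRBJ1-2 (edgeR adjusted p = 0.0765 for both).

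Between KO and CON 0 of 31 segments passed in beta-only cells in edgeR, 0% in each direction, with 1 at an unadjusted p under 0.05 in edgeR and 1 in DESeq2. That 1 was TRBV17, which was in 1.15 ± 0.84% of beta-only cells in KO and 4.36 ± 1.14% in CON (SD, n = 4 libraries each). Paired cells had it in 1.58 ± 0.57% in KO and 4.01 ± 3.87% in CON. TRBV17 had 0 and 3 beta-only cells in KO day 14, 9 and 3 in CON day 14, 2 and 1 in KO day 5, and 7 and 5 in CON day 5. On the log2 scale KO over CON was -1.66 ± 0.72 (SE), with an adjusted p of 0.673 in edgeR. TRBV10 had -1.34 ± 0.73, TRBV14 -1.49 ± 0.98 and TRBV12-2 0.69 ± 0.46 (edgeR adjusted p = 0.746 each). The iNKT-type beta segments together were in 49.1 ± 9.68% of beta-only cells in KO and 43.9 ± 6.10% in CON (SD, n = 4 each; exact permutation p = 0.167, adjusted p = 0.5).

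TRB CDR3 length was nearly the same in both classes over all libraries. It ran from 9 to 18 residues in beta-only cells and from 5 to 19 in paired cells, with a median of 14 in both. The mean was 13.8 ± 0.15 residues in beta-only and 13.8 ± 0.22 in paired cells (SD, n = 8), a difference of 0.0035 residues (exact sign-flip permutation p = 0.906). CDR3 of 12 or fewer residues were in 18.3% of beta-only and 22.1% of paired cells, and those of 16 or more in 11.8% and 11.2%.

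The sign of the length difference depended on the day. It was 0.142 and 0.0568 residues in KO day 14 and 0.0913 and 0.156 in CON day 14, against -0.141 and -0.101 in KO day 5 and -0.0381 and -0.137 in CON day 5. It was thus positive in 4 of 4 day 14 libraries and negative in 4 of 4 day 5 libraries, a change of 0.216 residues (exact permutation p = 0.0556, the smallest possible, adjusted p = 0.0926). Counted once per clonotype, the difference was -0.101 residues, with beta-only CDR3 shorter in 8 of 8 libraries (exact sign-flip permutation p = 0.0078, adjusted p = 0.0117). Mean length in beta-only cells was 13.9 and 13.9 residues in KO day 14, 13.6 and 13.7 in CON day 14, 13.7 and 13.9 in KO day 5, and 14.1 and 13.8 in CON day 5, and KO and CON overlapped (exact permutation p = 0.611).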

How the data were processed

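Each of 8 libraries had a deposited table of assembled T cell receptor contigs, with V, J and CDR3 names, flags, and UMI and read counts per contig. The submitters' processing notes name Cell Ranger 3.1.0, CASAVA 1.8, R 4.1.2, Seurat 4.0.0 and the builds GRCm38 and mm10, with no role for each. The UMI and read counts are whole numbers as the authors deposited them, not normalized, and contig length is in bases. Segment positions are from RefSeq annotation of GRCm38.p6, and 33 of 34 TRBV and TRBJ names matched.

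Contigs called cell, high-confidence and productive gave the classes. A cell's TRB is its productive chain with the most UMIs. Values were taken per library, since cells are not replicates. Gaps between classes were tested by sign flips over 8 libraries (256 patterns), and day and genotype by exact permutation within the other factor (36 relabelings), two-sided, with Benjamini-Hochberg adjustment over the measures of a contrast. Where beta-only cells were all at 0 for a measure, as for 2 or more TRB, it had no day or genotype test, so those contrasts have 6 measures. Between the classes that measure stayed in the adjustment over 6, as did the matched share per clonotype. Being the smallest possible, their p-values can lower the other adjusted p-values. Segment cell counts were tested with edgeR 4.0.16 (quasi-likelihood F test, offset the cells of the class) over segments with 40 or more cells, or 20 or more beta-only cells, and with DESeq2 1.42.0 as an alternative. R was 4.3.3, Python 3.11.15, SciPy 1.17.1. The tests were tried on simulated data. Named segments are those past the threshold, or the 4 with the smallest p, and up to 3 a list by size of change. Exact binomial intervals are at 95%, and floors use 3 counts. The members and lists were chosen with earlier results of these data known. The 8 RNA libraries were not used here.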

Additional observations from a re-analysis of the deposited data

Results flagged for a closer look

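The gap in mean TRB CDR3 length between beta-only and paired cells was positive in all 4 day 14 libraries and negative in all 4 day 5 libraries, a change of 0.216 residues. Every library of 1 day thus moved one way and every library of the other day the opposite way, and the exact permutation test gave p = 0.0556, the smallest it can give. Counted once per clonotype the change was -0.00301 residues.

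The difference in TRBJ1-1 use between beta-only and paired cells changed by -1.07 (log2) between day 14 and day 5, past the edgeR threshold for that interaction. It was -0.24 when each clonotype was counted once, and it did not pass in DESeq2.

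Among barcodes outside the cells called by the authors' pipeline, 41 had 2 or more productive TRB and no TRA, against 0 of 973 called beta-only cells. They numbered 1 to 10 per library, and their median was 10 TRB UMIs, against 3 for the uncalled barcodes with 1 TRB and no TRA. No group was large enough for a test of single outlying libraries.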

How the results depend on the processing

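The TRB UMI gap kept its direction in every alternative run, between -0.76 and -0.54 (log2). Its adjusted p stayed under 0.05 in each run that could pass the threshold (the 4 libraries of 1 day alone could not). With 1 library left out, its exact sign-flip permutation p was 0.0156. The adjustment there held the share of 2 or more TRB, whose small p can lower the other adjusted p-values. Those runs are therefore not read as calls. The difference in incomplete TRA contigs with a CDR3, which has no test, was 6.11 to 6.74 points without each library and 6.09 per clonotype. With each TRB clonotype counted once, the day difference in the beta-only share was 0.847 points, the UMI gap changed between days by 0.0092 and the beta-only UMIs by -0.0041 (log2), the CDR3 length gap was -0.101 residues and its change between days -0.00301, the gap in matched share was 4.83 points and its change between days 2.54 (the classes face unequal requirements per clonotype), and the gap in iNKT-type beta segments was 5.12 points (adjusted p = 0.0375). Median UMIs gave a change of the UMI gap between days of 0.0316. Day 5 libraries alone gave gaps of -0.104 residues, 1.08 points for matched cells and -0.592 points for non-productive TRA. The length gap was -0.0049 residues without possible doublets and -0.0194 with paired cells reweighted to the TRB UMI classes of beta-only cells, and the gap in 2 or more TRB was 0 without possible doublets, which removes all such cells. The gap in iNKT-type segments was 6.86 points with the reweighting (exact sign-flip permutation p = 0.0234, adjusted p = 0.0469). The adjustment held the share of 2 or more TRB, whose small p can lower this adjusted p, so it is not read as a call. Against paired cells without the iNKT type the gap was 15.0 points and its change between days -10.5. That filter takes such segments from the paired class alone and by itself raises the gap, so no call is read from it.

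Segments called between the classes numbered 3 with no minimum and 2 against paired cells without the iNKT type, a filter of the paired class alone. For the change between days, DESeq2 and counting clonotypes once called 0, and the joint name counted as TRBV13-2, no possible doublets, and no iNKT type called 2. Against paired cells without the iNKT type the change for TRBV12-2+TRBV13-2 was -0.13. Between days in beta-only cells, TMM factors, no minimum and clonotypes counted once called 2, and DESeq2 called 0.

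Leaving out 1 library at a time, the change of the genotype difference between days ran from -1.48 to 7.17 points, the length gap from -0.0182 to 0.0241 residues, the KO and CON length difference from -0.00086 to 0.111, the non-productive TRA gap from 3.13 to 6.80 points and its KO and CON difference from -5.59 to 2.34, the beta-only UMI difference between days from -4.3e-05 to 0.121 (log2), and the UMI difference within clonotypes from -0.51 to -0.30. Segments called ran from 0 to 3 for the change between days (0 without CON day 14 replicate 2, CON day 5 replicate 1 or CON day 5 replicate 2; TRBJ1-1 also failed without KO day 14 replicate 2) and from 0 to 3 between days in beta-only cells (0 without KO day 5 replicate 2).

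Labels number the replicates but name nothing that the numbers share. Same-numbered libraries deviated together over 31 segments with correlations of -0.14 to 0.30. With the replicate number as a block, segments called in beta-only cells numbered 1 between days and 0 between KO and CON, and the KO and CON difference in the share kept a value of 2.77 points (exact permutation p = 0.125). Other confidence and productive settings selected the same contigs and were not run. Beta-only cells of 68 to 168 per library and 2 libraries per group limit what could be called.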

Other observations

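Alpha-only cells, with a productive TRA and no productive TRB, were 1.14 to 4.78% of the cells with a TRA per library, against 12.4 to 24.4% beta-only among cells with a TRB. Non-productive TRB contigs were in 60 of 973 beta-only cells, or 6.17%, and in 531 of 4787 paired cells, or 11.1%. A contig that the caller gave no chain name but the constant gene TRAC was in 2.36% of beta-only and 2.61% of paired cells.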
